A study of Mus musculus with 7 samples.

Results

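Trpv4 and 7 further genes of the transient receptor potential (TRP) family were followed by RNA-seq in cochlear epithelium of mouse embryos at stage E16. The 8 genes, of 54532 in the deposited count table, were taken by name: Trpv4, Trpv2, Trpm4, Trpm7, Trpc1, Mcoln1, Mcoln3 and Pkd2. Trpv4 was chosen by its counts in these same libraries, for its rise in knockout, so its difference between the groups is a description here, with no test. The other 7 were taken for contrast within the family, with results of these data known. The knockout group (4 libraries) carries the label Brg1 knockout and the control group (3 libraries) the label Control; all 7 libraries were labelled untreated. The sources used here do not give what drove the deletion, which exons were removed, the mouse strain or how many embryos went into a library. The labels do not tie replicates to separate embryos, and p-values then measure the spread between these libraries alone, which may be technical.

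TRP channels are cation channels of the plasma membrane and of intracellular membranes, built as tetramers around a central pore. Trpv4 is a calcium-permeable channel opened by cell swelling, warmth and lipid messengers, and mice without it are known to have impaired hearing. In the cochlea, TRP channels are known from hair cells, supporting cells, the stria vascularis and the spiral ganglion. Brg1, encoded by Smarca4, is an ATPase subunit of BAF complexes, which move nucleosomes. The study's title names sensory epithelium differentiation and patterning as its subject.

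Library totals lay between 16098269 and 18872132 counts, and the 8 genes had between 58 and 2362 counts per library, so all 8 passed the filter on low counts. The deposited values are not whole: a gene's fraction is shared by 5 libraries and another is shared by the remaining 2, called batches below. What made the fractions was not tested, and the values may already carry a shift per gene and batch. Results by batch below are therefore of deposited values, not of known raw counts. The larger batch holds knockout replicates 1 to 3 and control replicates 1 and 2, the smaller one knockout replicate 4 and control replicate 3. Smarca4 was at 281, 239, 228 and 250 CPM across knockout replicates 1 to 4, against 372, 356 and 376 CPM in control replicates 1 to 3, so every knockout library was below every control library and the gene was still read in all of them (log2 fold change -0.56 ± 0.09 SE, edgeR adjusted p = 0.00336). CPM stands for counts scaled to library size, here after trimmed mean of M-values (TMM) normalization. Epithelial markers were present in every library (summed CPM of Epcam, Cdh1, Krt8, Krt18, Cldn6, Cldn3, Esrp1 and Grhl2 between 1270 and 1510 in knockout and between 1050 and 1220 in control). Markers of neurons, glia, mesenchyme, cartilage and macrophages were read too, and in bulk samples fewer cells of a type and less RNA per cell cannot be told apart.

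The promoters of 3 genes whose groups did not overlap are shown for their composition: Trpv4 and Trpc1, which were higher in knockout, and Trpv2, which was lower. Each is the 250 bases before the annotated start, 5′ to 3′ in the direction of transcription, from RefSeq on GRCm38.p6, with GC boxes (GGGCGG or its reverse complement CCGCCC) in capitals. Of the 8 genes, 7 had an entry; Trpm4 is named only. Trpv2 had 3 entries, and the one that starts where the gene starts in the files is shown.
Trpv4, chr5:114658422-114658671, reverse strand: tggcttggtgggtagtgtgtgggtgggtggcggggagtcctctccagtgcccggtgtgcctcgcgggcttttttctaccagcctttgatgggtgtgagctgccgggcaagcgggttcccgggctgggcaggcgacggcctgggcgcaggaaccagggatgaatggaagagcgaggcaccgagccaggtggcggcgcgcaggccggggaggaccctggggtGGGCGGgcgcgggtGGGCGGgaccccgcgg
Trpc1, chr9:95750349-95750598, reverse strand: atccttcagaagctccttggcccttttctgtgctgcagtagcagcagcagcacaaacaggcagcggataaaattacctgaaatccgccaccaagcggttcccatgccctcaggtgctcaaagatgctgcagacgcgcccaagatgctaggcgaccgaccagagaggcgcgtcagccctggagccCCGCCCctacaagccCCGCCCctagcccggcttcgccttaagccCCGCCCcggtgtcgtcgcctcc
Trpv2, chr11:62574236-62574485, forward strand: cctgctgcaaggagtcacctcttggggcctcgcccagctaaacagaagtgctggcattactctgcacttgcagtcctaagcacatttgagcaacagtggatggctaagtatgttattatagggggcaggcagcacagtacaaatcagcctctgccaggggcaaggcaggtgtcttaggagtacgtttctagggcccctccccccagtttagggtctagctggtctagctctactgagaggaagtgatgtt
The Trpv4 window was 72.0% G and C, richer than 93.1% of the 32851 windows of this length in the table, and held 22 CpG dinucleotides and 2 GC boxes. Trpc1 was 62.8% G and C, with 17 CpG and 3 GC boxes. Trpv2 was 53.2% G and C, with 2 CpG and 0 GC boxes, and its other entries were 50.4% and 54.4% G and C, with 2 and 5 CpG and 0 GC boxes in either. Genes that were not called also had such windows. Trpm7 was 60.4% G and C with 26 CpG and 0 GC boxes, and Mcoln1 61.6% with 21 CpG and 1 GC box. Mcoln3 was 58.0% G and C with 10 CpG and 1 GC box, and Pkd2 52.8% with 4 CpG and 0 GC boxes. The RefSeq start used for Mcoln3 lies 4341 bases from the gene start that the counts were annotated with, inside that gene's span. The median window had 52.4% G and C and 6 CpG, and 32.7% of windows held at least 1 GC box. Of the other genes, Mcoln1 held 2 copies of the E-box CACGTG and Trpm7 held 1, a motif found in 6.02% of windows, and none of the 7 windows held TATAAA (12.4% of windows). The 3 motifs were searched on both strands, and none contains another. A match is a description of letters, not a site.

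Trpv4 (ENSMUSG00000014158) lies on chromosome 5 from 114622152 to 114658421, reverse strand, mm10, and has 8 annotated transcripts in GENCODE M21, of which 5 are protein coding. It was at 43.5, 55.0, 55.7 and 59.7 CPM across knockout replicates 1 to 4, against 22.2, 25.2 and 20.0 CPM in control replicates 1 to 3. The lowest knockout library was above the highest control library by more than the range of the controls. Mean ± SD was 53.5 ± 6.94 CPM over the 4 knockout libraries and 22.5 ± 2.62 CPM over the 3 control libraries, a fitted fold of 2.38 (log2 fold change 1.25 ± 0.12 SE; 95% interval 0.98 to 1.52). The gene was chosen for this difference, which is therefore given with no p-value. Leaving out each library in turn kept the log2 fold change between 1.17 and 1.33.

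**Figure D1:**
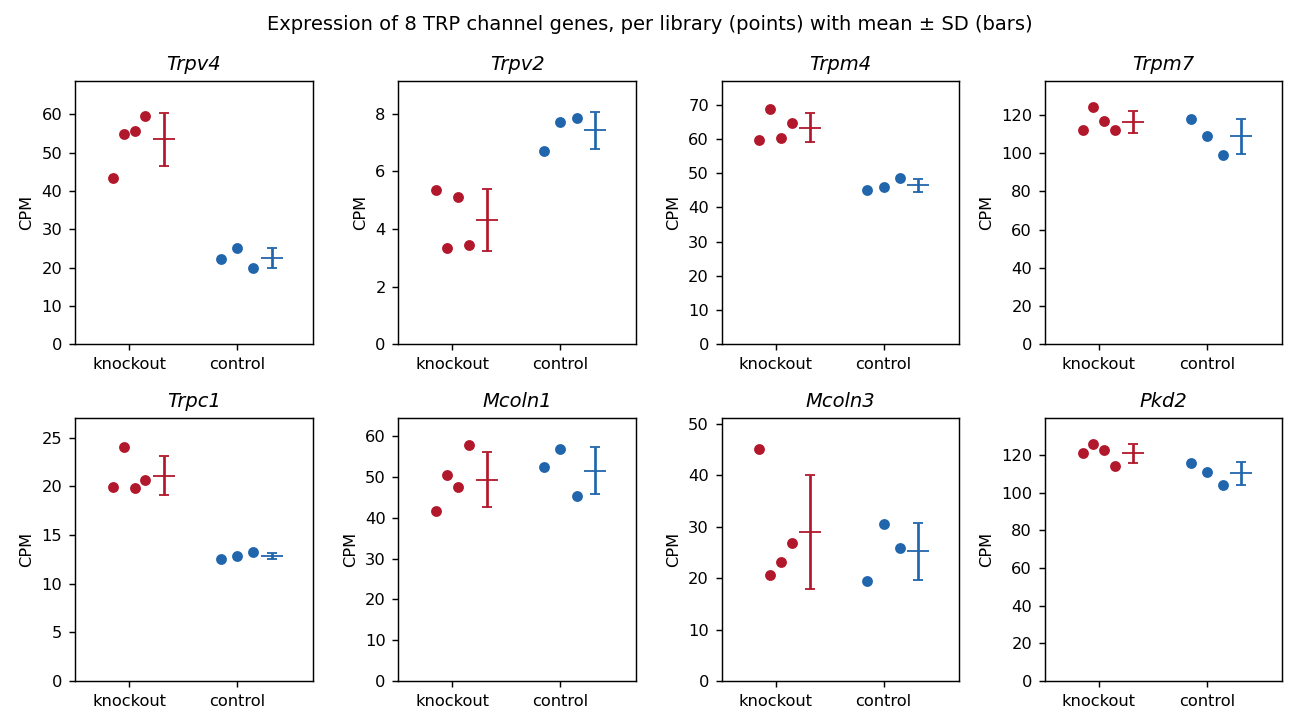
CPM of each of the 8 genes (vertical axis from 0) in the 4 knockout libraries (red, left) and the 3 control libraries (blue, right); points are libraries in replicate order and bars the mean ± SD. The red and blue points do not overlap for Trpv4, Trpm4 and Trpc1 (red higher) or Trpv2 (red lower), and do for the other 4.

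By FPKM, a level corrected for gene length and library size, Trpv4 ranked 1 among the 8 genes in knockout and 5 in control. In knockout libraries the order by mean FPKM was Trpv4 (12.7), Pkd2 (11.6), Trpm7 (9.97), Mcoln3 (8.12), Mcoln1 (6.34), Trpm4 (5.67), Trpc1 (2.55) and Trpv2 (0.933). In control libraries it was Pkd2 (10.6), Trpm7 (9.36), Mcoln3 (7.09), Mcoln1 (6.67), Trpv4 (5.37), Trpm4 (4.19), Trpv2 (1.61) and Trpc1 (1.56). Not every step in these orders exceeded the spread. In knockout, the ranges of neighbours overlapped from Trpv4 down to Trpm4, and Trpc1 and Trpv2 were each separate from the gene above. In control, neighbours overlapped from Pkd2 down to Trpv4 and again between Trpv2 and Trpc1, with Trpm4 separate from both of its neighbours.

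Within the whole TRP family of 28 genes, Trpv4 made up 13.6% ± 1.68 of the summed FPKM over knockout libraries and 6.39% ± 0.541 over control libraries (SD, n = 4 and n = 3). Trpv4 FPKM exceeded 76.6%, 81.2%, 81.3% and 82.3% of protein-coding genes in knockout replicates 1 to 4, against 63.3%, 66.1% and 62.0% in control replicates 1 to 3. The summed FPKM of the family was 93.6 ± 2.89 in knockout and 84.1 ± 5.95 in control, and the Trpv4 difference is part of that sum. Trpm3, a calcium-permeable channel activated by neurosteroids and heat, stood above all 8 described genes in mean FPKM, at 23.3 in knockout and 24.2 in control.

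**Figure D2:**
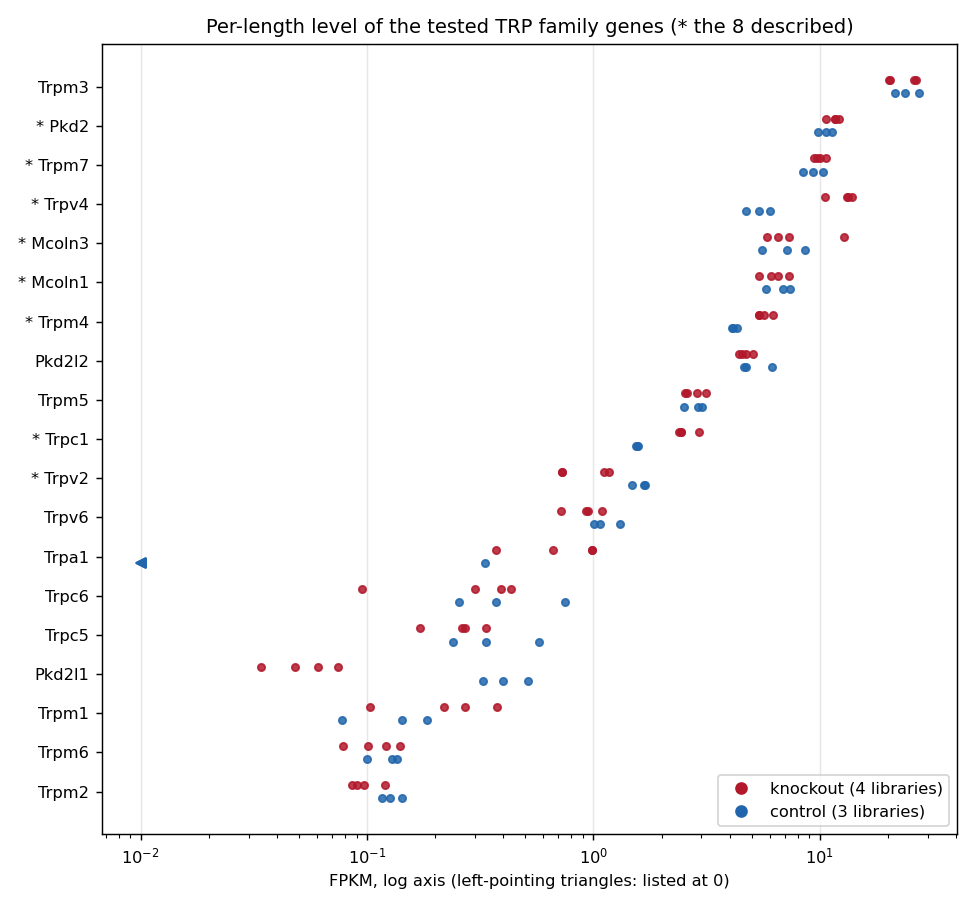
FPKM (log axis) of the described TRP family genes that passed the filter, ordered by level, with knockout libraries in red above control libraries in blue; triangles mark values listed at 0 and asterisks the 8 described genes. The family spans from Trpm3, above 20 FPKM in every library, down to genes below 1 FPKM.

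Among the other genes of the plasma membrane, Trpc1 and Trpm4 were higher in knockout. Of the 8 genes, 3 were called higher and 1 lower by edgeR's quasi-likelihood test (adjusted p below 0.05 over all 17354 genes tested), where 6.82% of all tested genes were called, 1.95% higher and 4.87% lower. Trpv4 is among the 3 and was picked for it. Trpc1 (chromosome 9, 95705082 to 95750375, reverse strand), a canonical TRP subunit that joins other TRPC subunits and is activated downstream of phospholipase C, was at 19.9, 24.0, 19.8 and 20.6 CPM across knockout replicates 1 to 4, against 12.5, 12.8 and 13.2 CPM in control replicates 1 to 3. The groups did not overlap, as in 20.7% of all tested genes (9.27% with knockout higher, 11.5% with knockout lower). The log2 fold change was 0.72 ± 0.12 (SE; edgeR adjusted p = 0.00408), a fold of 1.64.

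Trpm4 (chromosome 7, 45302632 to 45333780, reverse strand) encodes a channel that calcium opens from inside the cell and that passes monovalent ions, not calcium. It was at 59.6, 68.7, 60.2 and 64.7 CPM across knockout replicates 1 to 4, against 45.0, 45.8 and 48.6 CPM in control replicates 1 to 3. Again the groups did not overlap, and the log2 fold change was 0.45 ± 0.08 (SE; edgeR adjusted p = 0.00851), a fold of 1.36. Without control replicate 1 the call was lost (log2 fold change 0.42, edgeR adjusted p = 0.0515). The annotated span of Trpm4 contains the processed pseudogene Rpl14-ps1 on the other strand, whose log2 fold change was 0.00 ± 0.16, and whether reads were counted by strand is not given.

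Trpv2, of the same vanilloid subfamily as Trpv4, went the other way. The gene lies on chromosome 11 from 62574486 to 62600515, forward strand, and encodes a cation channel known from neurons and macrophages. It was at 5.35, 3.32, 5.12 and 3.44 CPM across knockout replicates 1 to 4, against 6.69, 7.71 and 7.86 CPM in control replicates 1 to 3. Every knockout library was below every control library, by a log2 fold change of -0.78 ± 0.21 (SE; edgeR adjusted p = 0.049). This call was at the edge of the threshold: it held in 5 of 18 alternative settings, with adjusted p from 0.0137 to 0.238, and when a library was left out it held without knockout replicate 1 and was lost without any of the other 6. As a ratio of FPKM, Trpv4 over Trpv2 was 8.96, 18.2, 12 and 19 in knockout replicates 1 to 4 and 3.64, 3.59 and 2.8 in control replicates 1 to 3.

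Trpm7, the mucolipins and Pkd2 did not pass the test. Trpm7 (chromosome 2, 126791565 to 126876230, reverse strand), a magnesium- and calcium-permeable channel fused to a kinase, was at 112, 124, 117 and 112 CPM across knockout replicates 1 to 4, against 118, 109 and 99.2 CPM in control replicates 1 to 3. The groups overlapped, and knockout minus control came to 0.10 ± 0.08 on the log2 scale (SE; interval -0.08 to 0.28; edgeR adjusted p = 0.534). Pkd2 (chromosome 5, 104459450 to 104505819, forward strand), polycystin-2 of the primary cilium and the endoplasmic reticulum, was at 121, 126, 123 and 114 CPM across knockout replicates 1 to 4, against 116, 111 and 104 CPM in control replicates 1 to 3. Knockout replicate 4 was below control replicate 1, and the log2 difference came to 0.13 ± 0.07 (SE; interval -0.03 to 0.29; edgeR adjusted p = 0.351). For both genes the interval lies below the Trpm4 estimate of 0.45. The Trpm4 interval, 0.26 to 0.63, overlaps both, and the genes were not tested against each other.

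Mcoln1 and Mcoln3 encode channels of endosomes and lysosomes. Mcoln1 (chromosome 8, 3500457 to 3515232, forward strand), the lysosomal calcium release channel mutated in human mucolipidosis type IV, was at 41.6, 50.5, 47.5 and 57.9 CPM across knockout replicates 1 to 4, against 52.4, 57.0 and 45.5 CPM in control replicates 1 to 3. These ranges overlapped (log2 fold change -0.06 ± 0.12 SE; 95% interval -0.32 to 0.19; edgeR adjusted p = 0.813). Mcoln3 (chromosome 3, 146117450 to 146141806, forward strand) is the gene mutated in the deaf varitint-waddler mouse, whose hair cells and pigment cells are affected. It was at 45.2, 20.6, 23.2 and 26.8 CPM across knockout replicates 1 to 4, against 19.4, 30.5 and 25.8 CPM in control replicates 1 to 3. Knockout replicate 1 alone was above all control libraries, and the spread within the knockout group (29.0 ± 11.1 CPM, SD, n = 4) was wider than the difference from the control mean of 25.2 ± 5.53 CPM (SD, n = 3). Its log2 fold change of 0.20 ± 0.28 (SE; interval -0.45 to 0.86) did not pass (edgeR adjusted p = 0.753) and turned to -0.10 without knockout replicate 1.

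The library with the high Mcoln3 value also had the highest sum of melanocyte markers. Dct, Pmel, Tyr and Mitf were highest in that library, while Tyrp1, Mlana and Kit were not. The summed CPM of Dct, Tyrp1, Mlana, Pmel, Tyr, Mitf and Kit was 203, 98.1, 113 and 122 in knockout replicates 1 to 4, against 91.9, 121 and 129 in control replicates 1 to 3, and none of these markers was at 0. Trpm1, a TRP channel known from melanocytes and retinal bipolar cells, was at 5.62, 1.55, 4.13 and 3.39 CPM across knockout replicates 1 to 4, against 1.15, 2.16 and 2.84 CPM in control replicates 1 to 3. Summed markers of the cochlear roof and stria were highest in the same library (4150 CPM, against 2240 to 3450 CPM in the other knockout libraries and 2240 to 2640 CPM in controls). Most of that sum was Oc90, at 3550 CPM. Otx2, Gata2, Esrrb and Lmx1a were also highest in this library, while Bmp4, Kcnq1 and Kcne1 were not. The part of these cell types in the Mcoln3 value was not tested.

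Beyond the 8, 12 more TRP family genes were expressed enough to test, and 1 of them was called. Pkd2l1, a polycystin-like channel known from sour-sensing taste cells and neurons that contact the cerebrospinal fluid, was at 0.218, 0.267, 0.123 and 0.178 CPM across knockout replicates 1 to 4, against 1.83, 1.44 and 1.2 CPM in control replicates 1 to 3. It fell in knockout, by a log2 fold change of -2.86 ± 0.40 (SE; edgeR adjusted p = 0.0017), on counts of at most 5 per knockout library, so the size of the change is uncertain; it was called in all 18 alternative settings. Trpa1, the irritant receptor, was at 4.26, 4.28, 2.90 and 1.66 CPM across knockout replicates 1 to 4, was listed at 0 in control replicates 1 and 2 and was at 1.47 CPM in control replicate 3. Its groups did not overlap, but it did not pass the test (edgeR adjusted p = 0.198) and was called in 4 of 18 alternative settings.

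The other tested genes described here did not pass. The most abundant was Trpm3, at 166, 219, 216 and 174 CPM across knockout replicates 1 to 4, against 222, 196 and 180 CPM in control replicates 1 to 3 (log2 fold change -0.04 ± 0.12 SE). Trpm5, a calcium-activated channel of taste and other chemosensory cells, had a log2 fold change of 0.00 ± 0.12 (SE), Trpm1 one of 0.84 ± 0.42 and Trpm2 one of -0.38 ± 0.28. The canonical subunits Trpc5 (-0.55 ± 0.35) and Trpc6 (-0.57 ± 0.47) were both below 0. Trpm6, a magnesium channel, was at -0.13 ± 0.35, the calcium channel Trpv6 at -0.29 ± 0.21 and Pkd2l2 at -0.13 ± 0.14. The remaining 8 genes of the family had at most 14 counts in any library and were not tested, and 2 of them, Trpc2 and Trpv5, were at 0 throughout. Over the 20 tested genes of the family, 3 were called higher and 2 lower, with a median log2 fold change of -0.05. Over all tested genes 1.95% were called higher and 4.87% lower, and their median was 0.02. Trpv4, picked for its rise, is among the 3 of the family.

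**Figure D3:**
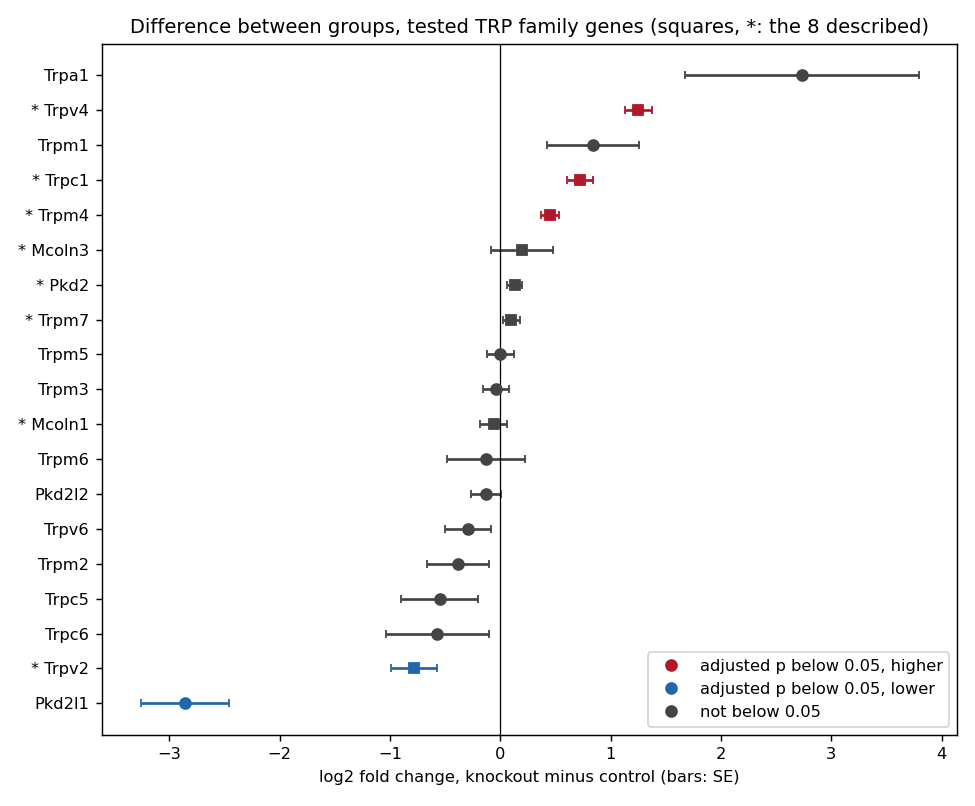
Log2 fold change, knockout minus control, with its SE for the tested TRP family genes described here; squares and asterisks mark the 8 described genes, red and blue mark an edgeR adjusted p below 0.05. The 3 red genes are Trpv4 (chosen for its rise), Trpc1 and Trpm4, and the 2 blue genes are Trpv2 and Pkd2l1. The bar of Trpa1, which is at 0 in 2 control libraries, is the widest.

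The larger of the batches, with 3 knockout and 2 control libraries, gave log2 fold changes of 1.11 ± 0.14 for Trpv4, 0.74 ± 0.15 for Trpc1 (edgeR adjusted p = 0.032), 0.47 ± 0.10 for Trpm4 (adjusted p = 0.0427) and -0.65 ± 0.26 for Trpv2 (adjusted p = 0.238), each with its SE; 3.72% of genes were called there. The smaller batch, with 1 knockout and 1 control library, has no replicates to test. In it, the knockout library minus the control library was 1.55 for Trpv4, 0.63 for Trpc1, 0.41 for Trpm4 and -1.08 for Trpv2 on the log2(CPM + 0.5) scale. Mcoln1 was below control in the larger batch (-0.23 ± 0.11, edgeR adjusted p = 0.336) and above it in the smaller (0.34). All of these rest on deposited values that may carry a shift per batch, which was not tested.

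Of 18 genes known to act with or regulate Trpv4, 3 were lower and 0 higher by edgeR, with a median log2 fold change of -0.01. Over all tested genes, 4.87% were lower and 1.95% higher, and the median was 0.02. Ano1, a calcium-activated chloride channel that works with Trpv4 in secretory epithelia, averaged 20.9 ± 2.19 CPM over knockout and 39.7 ± 5.25 CPM over control libraries (SD; log2 fold change -0.93 ± 0.12 SE, edgeR adjusted p = 0.00135). The calcium-activated potassium channels Kcnma1 (-1.23 ± 0.27) and Kcnn4 (-0.74 ± 0.18) fell too. The Kcnma1 call held in 14 of 18 alternative settings. It was lost without control replicate 1 (-1.04, adjusted p = 0.0872), in the larger batch alone (adjusted p = 0.0794) and in both limma fits on FPKM (adjusted p = 0.0669 and 0.0597). The Kcnn4 call was lost when any 1 library was left out. Pacsin2 (-0.09 ± 0.07) and Pacsin3 (0.13 ± 0.10), which bind the channel, and the stretch-activated channels Piezo1 (0.20 ± 0.15) and Piezo2 (0.31 ± 0.10) did not pass.

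Lists around other channels were set beside all tested genes, of which 1.95% were called higher and 4.87% lower. Of 13 genes of store-operated calcium entry, a process linked to Trpc1, 1 was higher and 0 lower (median 0.06): the calcium release channel Itpr1 rose by 0.52 ± 0.09 on the log2 scale (68.1 ± 4.0 CPM in knockout and 47.5 ± 4.15 CPM in control). Of 12 polycystin and cilium genes, 10 were tested and 0 were called by edgeR or DESeq2, with 1 (Tulp3, 0.23 ± 0.07) at an unadjusted p under 0.05. Of 13 genes of magnesium transport and of the Trpm4 partner Abcc8 with its channel subunit Kcnj11, Magt1 rose (0.36 ± 0.09) and Kcnj11 fell (-0.88 ± 0.16), with a median of -0.14. The Kcnj11 call held in 16 of 18 alternative settings and was lost in the larger batch alone (adjusted p = 0.0607) and with a replicate block by description number (adjusted p = 0.0585). Abcc8 itself was at -0.42 ± 0.23 and did not pass. The Magt1 call held in 2 of the 7 fits that left out a library.

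Marker genes of the cells in the sample were compared in the same libraries, where 1.95% of all tested genes were called higher and 4.87% lower. Beside the rise of Trpv4, Trpm4 and Trpc1, 4 of 8 epithelial markers were higher and 0 lower (median log2 fold change 0.35), these being Cdh1, Cldn3, Esrp1 and Grhl2. Trpv4 as a percentage of the summed epithelial CPM was between 2.87% and 4.40% in knockout and between 1.64% and 2.14% in control. Trpc1 was between 1.31% and 1.66% in knockout and between 1.08% and 1.19% in control on the same scale. For Trpm4 the ranges overlapped on it, at 3.93% to 4.77% in knockout and 3.88% to 4.27% in control. Cartilage markers (1 of 8 higher, 0 lower; summed CPM 8660 to 11400 in knockout and 7230 to 8920 in control) and mesenchyme markers (3 of 8 higher, 0 lower; summed CPM 2410 to 3350 in knockout and 2350 to 2710 in control) had higher members too, and Trpv4 is also known from cartilage cells. Of 8 hair cell markers, Gfi1 (log2 fold change 1.0 ± 0.22) and Espn (0.77 ± 0.16) were higher and 0 were lower, with summed CPM of 277 to 298 in knockout and 248 to 260 in control. Of 8 prosensory and supporting cell markers, Sox2 (-0.37 ± 0.10) and Lfng (-0.73 ± 0.12) were lower and 0 were higher (median -0.07). Their summed CPM was 665 to 783 in knockout and 746 to 833 in control. The part of any of these cell types in the rise was not tested.

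Beside the fall of Trpv2 and Pkd2l1, all 10 neuron markers were lower in knockout, with summed CPM of 338 to 658 in knockout and 1480 to 1670 in control, and 3 of 8 glial markers were lower and 0 higher (705 to 894 in knockout and 1170 to 1270 in control). Set against the neuron markers, Trpv2 was between 0.812% and 0.980% of their summed CPM in knockout and between 0.402% and 0.521% in control, so the summed neuron markers were lower by a larger factor than Trpv2. Macrophage markers, in contrast, had 2 of 8 higher and 0 lower (summed CPM 110 to 141 in knockout and 84.9 to 110 in control). Trpv2 was between 2.4% and 4.87% of the summed macrophage CPM in knockout and between 7.13% and 7.88% in control. For scale, 4.87% of all tested genes were called lower and 1.95% higher. The part of neurons in the fall of Trpv2 and Pkd2l1 was not tested.

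**Figure D4:**
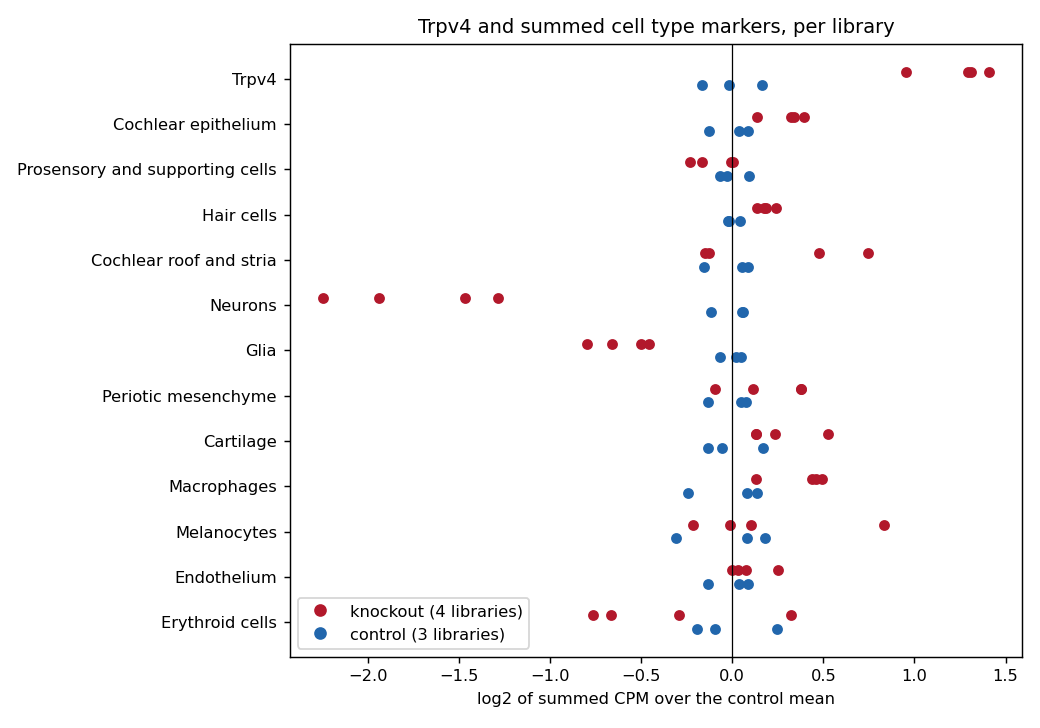
Trpv4 (top) and the summed CPM of 12 marker lists in each library, as log2 over the control mean, with knockout libraries in red above control libraries in blue. Trpv4 lies further to the right than any marker list, the neuron list furthest to the left, and knockout replicate 1 is the melanocyte point farthest to the right.

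Neither of the nearest tested genes on the sides of Trpv4 passed the test. The nearest tested gene on the side of lower coordinates, Fam222a, lies 8932 bases away and was at 22.2 ± 1.53 CPM in knockout and 27.7 ± 1.7 CPM in control (SD, n = 4 and n = 3; log2 fold change -0.32 ± 0.10 SE, edgeR adjusted p = 0.0876), with no overlap between the groups. Gltp, 10977 bases away on the upstream side of Trpv4, was at 63.0 ± 3.35 CPM in knockout and 60.8 ± 2.48 CPM in control (0.05 ± 0.08). No annotated gene overlaps Trpv4 in the files.

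The genes whose log2(CPM + 0.5) followed Trpv4 most closely over the 7 libraries were Gm7265 (Pearson r = 0.999), 8030423J24Rik (0.995), Prlr, Gm2093 and Ighm (0.991 each), of which Ighm was highest at 4.24 ± 0.475 CPM in knockout. All are low, and 86 of 17353 genes had r above 0.95. With group means subtracted first, Mindy4b-ps (0.995), Gm7265 (0.995) and Als2cl (0.994) came first. With only protein-coding genes averaging at least 10 CPM kept, a limit chosen after the values were seen, 53 of 10851 had r above 0.95. The closest of them were the tight junction genes Cgn (0.988) and Tjp3 (0.987), then Stard5 (0.984), Zdhhc1 (0.983) and Decr2 (0.983). Cgn was at 85 ± 7.67 CPM in knockout and 46.4 ± 2.91 CPM in control. These points share their libraries and the difference between groups, so the values are a description.

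**Figure D5:**
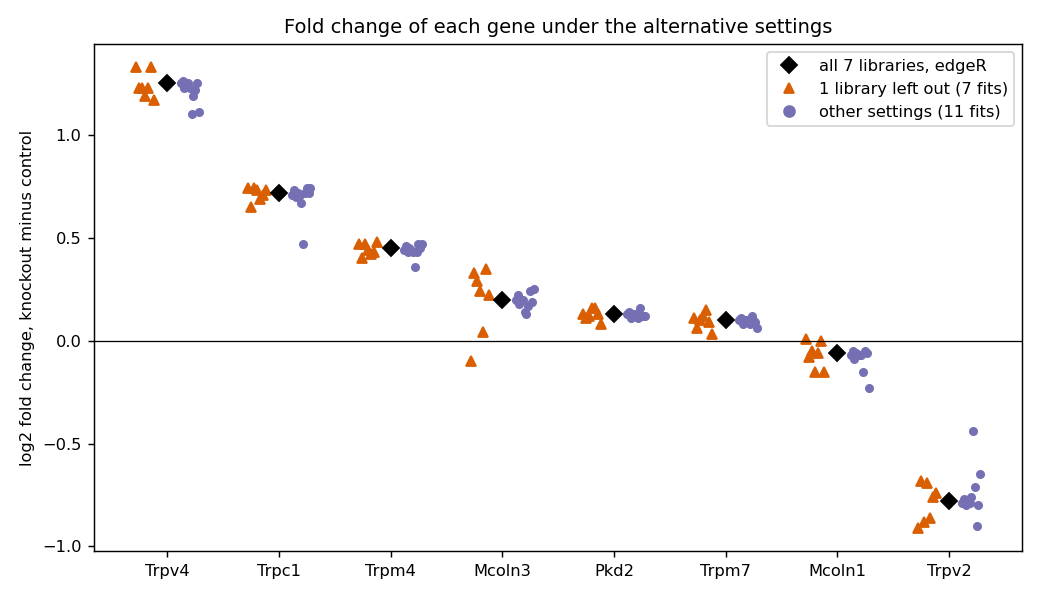
Log2 fold change, knockout minus control, of the 8 genes with all 7 libraries (black diamonds), in the 7 fits that leave out 1 library (orange triangles) and under 11 other settings (purple points). Trpv4, Trpc1 and Trpm4 stay above 0 and Trpv2 below 0 throughout; Mcoln3 and Mcoln1 cross 0 when single libraries are left out.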

How the data were processed

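Per the labels' protocols, RNA came from an RNeasy Micro kit and libraries from a NEBNext Ultra RNA kit. Per the submitters' processing notes, the tools were DESeq2 1.20.0, featureCounts 1.5.0-p3, HISAT2 2.0.5, fastp and CASAVA 1.8, on mm10; their roles, settings and strand handling are not stated. The authors deposited estimated counts in 1 table and FPKM values in another. The counts are not whole: the 21368 genes with no 0 have values within 0.001 of multiples of 1/12, and 19603 of them carry a fraction that 5 libraries share and another that the remaining 2 share. They were therefore rounded before the count test, which was kept from a design that expected whole counts.

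The main test was edgeR 4.0.16 (R 4.3.3): TMM scaling, low counts removed with filterByExpr, robust quasi-likelihood test of knockout against control, and Benjamini-Hochberg adjustment over 17354 genes, with 5 residual degrees of freedom. SE were derived from its F statistic. It was tested on simulated data. Alternatives used DESeq2 1.42.0 and limma 3.58.1 on log2(FPKM + 0.1) and log2(FPKM + 1). The members and gene lists were chosen with earlier results of these data known. Named genes were the 8 members, tested TRP genes, called partners, nearest tested neighbours of Trpv4 and its closest correlates; a few results under this rule are not reported here. Columns were matched to samples by description, where control replicate 3 carries the number 4. Coordinates of the 8 genes were the same in GENCODE M21.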

Additional observations from a re-analysis of the deposited data

Results flagged for a closer look

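For 43 genes the 4 knockout libraries were set against each other. In 8030423J24Rik, knockout replicate 1 was at 0.436 CPM and the other knockout libraries at 0.642 to 0.678 CPM, a gap large for the group's range. These are 8 counts against 11 to 12, a gap that counting error covers. The gene was named for following Trpv4, which is also lowest in that knockout library. About 1 in 20 such groups is marked by chance.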

How the results depend on the processing

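Over 18 alternatives, Trpv4 kept a log2 fold change between 1.1 and 1.33, and Trpc1 (0.47 to 0.74) was called in 18 and Trpm4 (0.36 to 0.48) in 17. Among the 8 genes, 2 to 3 were called higher and 0 to 1 lower when a library was left out. In the TRP family, 2 to 4 were called higher and 1 to 2 lower. Trpv4, picked for its rise, is in each of these counts of higher calls. With library totals only, either limma fit on FPKM, either replicate block, a batch term or the larger batch alone, 0 of the 8 genes and 1 of the family were called lower. Over all genes, leaving out a library gave 106 to 335 higher and 450 to 855 lower calls, the fewest without control replicate 1. DESeq2 called 556 higher, the batch term 206, and the larger batch 218 higher and 435 lower. The replicate block by title number gave 181 higher calls, and by description number 74 higher and 537 lower. The numbers share no stated origin. Deviations of same-numbered libraries correlated at -0.0963, -0.171 and 0.052 by title and -0.513 for the pair that only the description joins. That last pair is also the whole smaller batch, so its value cannot tell pairing from batch. Same-numbered libraries were not read as pairs. Uncalled log2 fold changes crossed 0 when a library was left out for Mcoln1 (-0.15 to 0.01), Mcoln3 (-0.10 to 0.35), Trpm3 (-0.12 to 0.03) and Trpm5 (-0.07 to 0.04). Trpm5 was also at 0.01 with library totals only, 0.00 with a filter of 1 CPM or a batch term and 0.04 with the block by description number, and Trpm6 at 0.05 in the larger batch. The cause was not tested. Genes with few counts, such as Pkd2l1, are limited by depth.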
